A study of Mus musculus with 12 samples.

Results

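The mitochondrial ribosomal protein genes are the nuclear genes whose products build the ribosome inside mitochondria. They were taken as every gene on the array whose symbol starts with Mrpl or Mrps followed by a number. This gave 76 of 19494 named genes, each with 1 probe set. The rule used symbols and no measured value, though it was set with earlier results of these data known. The products of 50 of them belong to the large ribosomal subunit and those of 25 to the small subunit. Mrps18a and Mrps30 carry small-subunit names, but their products sit in the large subunit, and they were counted there. The remaining gene, Mrps36, matches by symbol only, since its product is known as a part of the 2-oxoglutarate dehydrogenase complex of the citric acid cycle.

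RNA was measured on 12 single-colour arrays from mouse bone marrow cells, in 4 groups of 3 samples. Donor marrow with the CD45.2 allele came from Nfat5 +/+ Vav-Cre mice (wild-type, samples 66, 67 and 75) or, for the NFAT5-deficient groups (samples 64, 70 and 76), from Nfat5 fl/fl Vav-Cre mice. It was transplanted into irradiated wild-type recipients with the CD45.1 allele. NFAT5 is a transcription factor that switches on genes protecting cells against high salt. Vav-Cre drives recombination in blood-forming cells, and the wild-type donors carried it too. After 13 weeks, donor-derived hematopoietic stem cells (HSC, CD48- CD150+) and multipotent progenitors (MPP, CD48+ CD150-) were sorted from the lineage-negative, Sca-1+, Kit+ cells, and amplification started from 300 pg of total RNA. The age of the mice is not in the labels. Nothing in them says that the sample numbers stand for separate animals, so the tests measure the spread between these samples, which may in part be technical.

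Mitochondria keep a small genome that encodes a few core subunits of the respiratory chain together with the ribosomal and transfer RNAs needed to translate them. All proteins of the mitochondrial ribosome are made in the cytosol from nuclear genes, imported, and assembled on the mitochondrial ribosomal RNAs. Some have counterparts in bacterial ribosomes (45 of the 76 genes were counted so here), and others were counted as added in the mitochondrial lineage (30 genes). Mrps18a and Mrps18b were counted among the 30, though they are paralogues of a bacterial protein. Hematopoietic stem cells are known for low rates of cytosolic protein synthesis, and the progenitors next to them for higher ones.

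The promoters of genes for mitochondrial ribosomal proteins are known for sites of NRF1, of ETS family factors such as GABPA, and of YY1, and these letters were looked for as a description of the members. RefSeq (GRCm38.p6) gave the window from 250 bases before to 50 bases after the annotated start for 67 of the 76 genes, and both strands were read. The ETS letters CCGGAAGT stood in 12 of these windows (17.9%), against 4.31% of the windows of 27025 genes. The shorter form CCGGAAG, which also lies within the longer one, stood in 25 (37.3%, against 9.93%). The NRF1 letters GCATGCGC stood in 8 windows (11.9%, against 3.05%). The YY1 letters AAGATGGCG stood in 8 too (11.9%, against 1.64%). An E-box, CACGTG, the letters bound by MYC and MAX, stood in 5 (7.46%, against 8.09%), and CCAAT in 26 (38.8%, against 41.1%). The forms of these letters were settled after some of the shares had been seen, and a match of letters is not a measured site. The 3 promoters printed here, each the 150 bases just before the annotated start on the strand of the gene, show an NRF1 match on both strands (Mrpl39, chr16:84735245-84735394, minus strand), an ETS match next to the start (Mrps22, chr9:98601680-98601829, minus strand) and an ETS match in front of the paralogue described at the end (Mrps18a, chr17:46110854-46111003, plus strand). Capitals mark the matched letters, and each sequence runs 5′ to 3′.
Mrpl39: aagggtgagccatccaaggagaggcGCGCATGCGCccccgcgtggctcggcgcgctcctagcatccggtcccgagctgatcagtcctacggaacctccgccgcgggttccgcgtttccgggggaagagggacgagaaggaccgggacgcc
Mrps22: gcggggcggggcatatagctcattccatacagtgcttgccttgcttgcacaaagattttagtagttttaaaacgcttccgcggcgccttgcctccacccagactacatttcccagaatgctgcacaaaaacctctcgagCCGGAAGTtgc
Mrps18a: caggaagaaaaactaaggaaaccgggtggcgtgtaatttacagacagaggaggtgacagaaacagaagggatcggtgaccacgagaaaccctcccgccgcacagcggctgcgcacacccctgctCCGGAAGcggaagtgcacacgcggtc

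The 76 genes lie on 17 chromosomes, with 11 on chromosome 11 and 8 on chromosome 17. A single pair lay within 100 kb of each other. Mrpl46 (large subunit, minus strand) and Mrps11 (small subunit, plus strand) lie head to head on chromosome 7 with 41 bases between them. In wild-type and NFAT5-deficient HSC, Mrpl46 had 9.61 ± 0.73 (SD, n = 3) and 9.52 ± 0.32, and in MPP 9.54 ± 0.36 and 9.24 ± 0.32. Mrps11 had 8.30 ± 0.03 and 8.32 ± 0.41 in HSC, then 8.44, 7.64 and 7.92 on the wild-type MPP arrays and 8.05 ± 0.21 in NFAT5-deficient MPP, and for both genes the groups overlapped in each comparison of genotype or population.

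Nearly the whole group was detected in these cells. Values are log2 intensities, so a difference of 1 is a doubling. An intensity was taken as dim at or below 6.30, the 95th percentile of the means of 1091 olfactory receptor genes, which blood cells are not known to use. Of the 76 genes, 74 had means above it (97.4%, against 56.1% of all named genes). Mrps22 (6.01) and Mrpl10 (5.98), which carries the stalk of the large subunit, were the exceptions. Mean intensities reached 11.21 for Mrpl42, 11.20 for Mrpl33, 11.07 for Mrps33 and 10.85 for Mrps14, with a median of 8.45 over the members. Probe sets differ in how brightly they report, so these intensities do not rank the transcripts. In bulk samples, fewer cells of a type and less RNA per cell cannot be told apart.

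The level of the group as a whole was close to the same on every array. The median over the 76 genes was 8.30, 8.29 and 8.28 in wild-type HSC and 8.09, 8.37 and 8.18 in NFAT5-deficient HSC. It was 8.38, 8.36 and 8.51 in wild-type MPP and 8.41, 8.22 and 8.49 in NFAT5-deficient MPP. The means of these medians, with n = 3, were 8.29 ± 0.01 (SD), 8.21 ± 0.14, 8.42 ± 0.08 and 8.37 ± 0.14 in the same order. Wild-type HSC lay below wild-type MPP on every array, the genotypes overlapped in both populations, and HSC and MPP overlapped in NFAT5-deficient cells. The spread between arrays of a group, pooled over the groups, was 0.11, and the array medians over all named genes ran from 6.44 to 6.57.

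**Figure D1:**
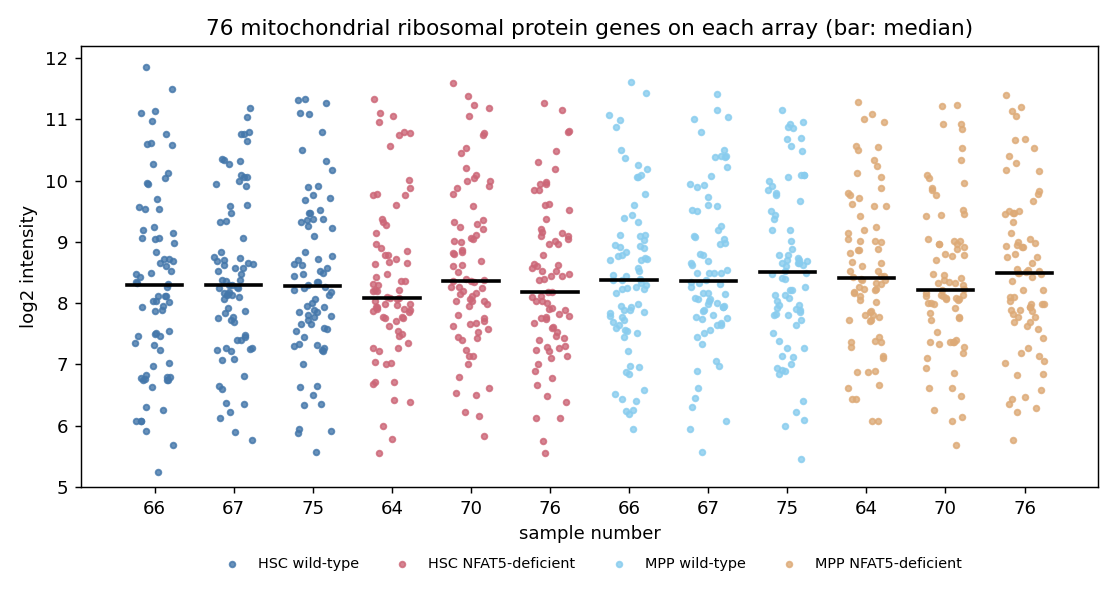
Log2 intensity (vertical axis) of the 76 mitochondrial ribosomal protein genes on each of the 12 arrays (horizontal axis, sample number), coloured by group; each point is a gene and each bar the median. The medians lie between 8.09 and 8.51 on all arrays.

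On average, the sorted populations carried their own markers. Of 6 HSC markers measured, the mean intensity was 9.78 and 9.64 in wild-type and NFAT5-deficient HSC. It was 8.49 and 8.67 in MPP. The 4 MPP markers had 6.86 and 6.93 in HSC and 10.34 and 10.62 in MPP. Slamf1 (CD150) and Cd48 are themselves antigens of the sort. Slamf1, Mecom, Fgd5 and Hlf were higher in HSC in both genotypes, Hlf by little (10.95 and 10.94 against 10.76 and 10.76). Procr was lower in NFAT5-deficient HSC (7.08) than in NFAT5-deficient MPP (7.35). Kit was lower in wild-type HSC (11.31) than in wild-type MPP (11.43). In the other genotype both were higher in HSC. Nfat5 itself had 9.49 ± 0.29 (SD, n = 3) and 8.24 ± 0.58 in HSC of the wild-type and NFAT5-deficient groups (limma adjusted p = 0.772), and 8.58 ± 0.41 and 7.92 ± 0.42 in MPP (adjusted p = 0.896). The mean of 9 mature neutrophil markers was 6.88 and 7.38 in wild-type HSC samples 66 and 67 and 5.52 in sample 75, against 5.42 to 5.53 in NFAT5-deficient HSC. In MPP it was 6.94, 7.02 and 5.96 in wild-type samples 66, 67 and 75, and 6.01 to 6.62 in NFAT5-deficient samples. Sample 75 was thus the lowest in both wild-type populations. Of the 9 markers, 4 were above the dim level in wild-type HSC and in both MPP groups, and 0 in NFAT5-deficient HSC. Markers of T cells and macrophages were at or below the dim level in all 4 groups, while 1 or 2 of 2 erythroid and 2 of 3 B cell markers were above it.

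Within a group, the members varied more between arrays than most genes did. Their median SD within groups was 0.46, against 0.25 over all named genes and 0.39 over the genes above the dim level. The least variable members were Mrps17 (SD 0.11), Mrps33 (0.12) and Mrpl4 (0.17). The most variable were Mrps25 and Mrpl13 (both 1.35) and Mrpl45 (1.19), whose product attaches the ribosome to the inner membrane. Mrpl13 had 6.08, 9.92 and 7.22 on the 3 wild-type HSC arrays and 7.87, 10.75 and 9.38 on the NFAT5-deficient HSC arrays. Mrps25 had 11.85 in wild-type HSC sample 66, where samples 67 and 75 had 8.10 and 7.45. The SD was over 0.75 in 11 of 76 genes (14.5%), against 18.3% of the genes above the dim level.

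**Figure D2:**
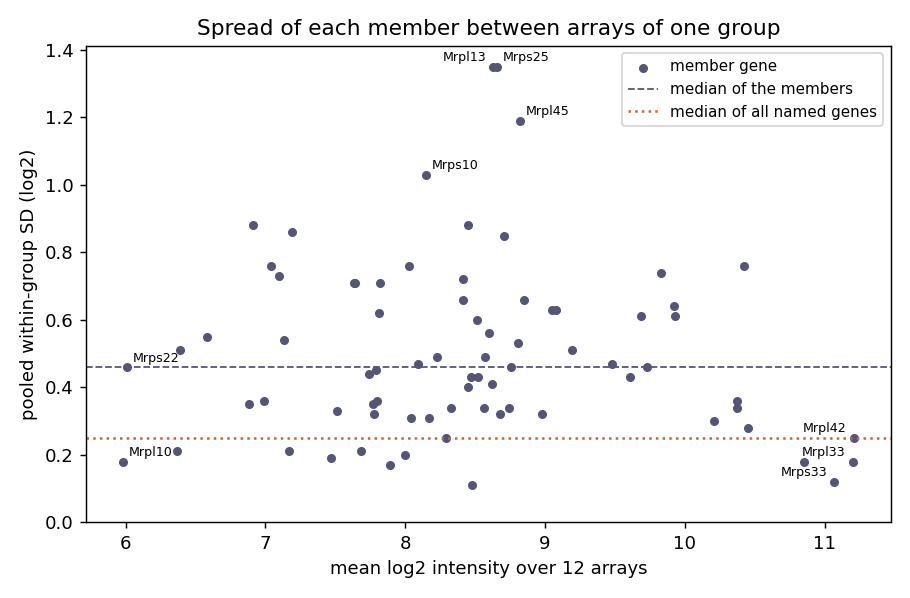
Pooled SD within groups (vertical axis, log2) against mean intensity over the 12 arrays (horizontal axis, log2) for the 76 genes, with the medians of the members (dashed, 0.46) and of all named genes (dotted, 0.25). Mrpl13, Mrps25 and Mrpl45 lie at the top, and Mrpl42, Mrpl33 and Mrps33, on the right, have SDs at or below 0.25.

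The members also did not vary together. After the group means were removed, the mean correlation between pairs of members over the 12 arrays was 0.010, with 0.035 within the large subunit and -0.005 within the small subunit. It was 0.280 between 60 genes of the cytosolic ribosome, 0.028 between 35 genes of respiratory complex I, and 0.004 between genes above the dim level. These are descriptions over arrays that share their preparation. The cytosolic ribosomal genes were also far brighter (median 12.23, with a median SD of 0.07).

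The first comparison asked whether loss of NFAT5 changes these genes in HSC. No member passed limma's test at an adjusted p under 0.05, and no gene on the array did (0% of 19494 genes called). The smallest adjusted p of a member was 0.779. At an unadjusted p under 0.05, 2 members were higher in NFAT5-deficient cells (2.63%, against 2.68% of all genes) and 3 were lower (3.95%, against 3.50%). The median difference over the members was -0.01, against -0.05 over all named genes. It was 0.00 over the large and -0.05 over the small subunit. The 95% confidence interval of a member's difference reached 0.79 to either side at the median, and under 1, which is a doubling, for 50 of 76 members.

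Among the members, Mrpl9, Mrpl20 and Mrps2 had the smallest p values in HSC. Mrpl9, a protein of the large subunit with a bacterial counterpart, had 6.75, 7.26 and 7.23 in wild-type and 7.94, 7.67 and 8.44 in NFAT5-deficient HSC. Every NFAT5-deficient value was above every wild-type one, by 0.94 on average (SE 0.31, 95% interval 0.26 to 1.61, limma adjusted p = 0.779). Mrpl20, an RNA-binding protein that joins the large subunit early, had 6.76, 8.30 and 7.66 against 8.48, 9.05 and 8.62. Its difference was 1.15 (SE 0.39, limma adjusted p = 0.779), and it was 0.74 without wild-type sample 66. Mrps2, a protein between the head and the body of the small subunit, went the other way. It had 9.54, 9.47 and 9.36 in wild-type and 9.14, 8.26 and 8.53 in NFAT5-deficient HSC, a difference of -0.82 (SE 0.28, limma adjusted p = 0.779).

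Further members had groups that did not overlap in HSC. In all, 6 members were higher in every NFAT5-deficient sample (7.89%, against 3.55% of all genes): Mrps14, Mrpl51, Mrpl48, Mrpl20, Mrpl9 and Mrps30. Another 3 were lower in every one (3.95%, against 6.61%): Mrps2, Mrps17 and Mrpl10, the last with both means (6.06 and 5.72) below the dim level. Mrpl48 differed by 1.10 (SE 0.54, adjusted p = 0.825 by limma), with 8.04 in wild-type sample 66 and 9.33 and 9.52 in samples 67 and 75, and by 0.64 without sample 66. Mrpl16, which lines the tRNA sites of the large subunit, had a difference of -0.83 (adjusted p = 0.806) with overlapping groups, which was -0.51 without wild-type HSC sample 67 and -1.29 without sample 66. Mrpl33 had one of -0.32 (adjusted p = 0.812). The neutrophil marker values given earlier also differed between these groups, and their part in the member differences was not tested. With HSC samples 66 and 70 both left out, a setting added after the data were seen, the member median was -0.11 and still 0 members were called.

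In MPP too, the median over the members differed little between NFAT5-deficient and wild-type cells, a description that was not tested. Again 0 members passed limma's test (smallest adjusted p 0.706), and 0.00513% of all genes did. At an unadjusted p under 0.05, 4 members were higher in NFAT5-deficient MPP (5.26%, against 1.76% of all genes) and 1 was lower (1.32%, against 3.59%). The median difference was -0.08, against -0.07 over all named genes, with -0.09 over the large and 0.07 over the small subunit.

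Mrps17, an early-binding protein of the small subunit, had the smallest p value. It had 8.23, 8.06 and 7.97 in wild-type MPP and 8.77 and 8.99 in NFAT5-deficient samples 70 and 76, with sample 64 just above these. The groups were well apart, with a difference of 0.83 (SE 0.19, 95% interval 0.41 to 1.26, limma adjusted p = 0.706). Mrpl47, which lies near the exit of the peptide tunnel, had 9.03, 7.98 and 8.27 in wild-type and 6.43, 7.73 and 6.82 in NFAT5-deficient MPP. All 3 NFAT5-deficient values were below the wild-type ones, with a difference of -1.44 (SE 0.53, limma adjusted p = 0.896). Mrpl15 had 8.73, 8.78 and 7.80 against 9.01, 8.88 and 9.48, a difference of 0.69 (SE 0.30, limma adjusted p = 0.896), which was 0.37 without wild-type sample 75, its low value.

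Over all members in MPP, 5 were higher in every NFAT5-deficient sample (6.58%, against 3.80% of all genes): Mrpl15, Mrps17, Mrps18a, Mrps18b and Mrpl38. A further 3 were lower in every one (3.95%, against 8.84%): Mrpl51, Mrps10 and Mrpl47. Mrps10, a protein of the small-subunit head, had the largest difference of the members in MPP, -1.54 (SE 0.75, limma adjusted p = 0.896). Its interval, -3.19 to 0.12, included 0. Mrpl39 had -0.58 (adjusted p = 0.896) with overlapping groups, and -0.35 without NFAT5-deficient MPP sample 70.

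The genotype differences of HSC and MPP took the same sign in some members and opposite signs in others. In 23 of 76 the NFAT5-deficient mean was lower in both HSC and MPP (38.5% of all genes were), and in 18 it was higher in both (19.0% of all genes). In 35 the signs were opposite (42.5% of all genes were too). These shares of all genes include dim genes, and none was taken above the dim level alone. Averaged over both populations, the member median was -0.01, against -0.06 over all named genes. At an unadjusted p under 0.05, 3 members were higher (2.48% of all genes were) and 3 lower (4.63%), and limma called 0 members and 0% of all genes (smallest adjusted p of a member 0.690).

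A pair of members had genotype groups apart in opposite directions in HSC and MPP. The share of all genes with this pattern was not counted. Mrpl51, a mitochondria-specific protein of the large subunit, had 9.70, 9.61 and 9.89 in wild-type and 10.74, 10.09 and 9.95 in NFAT5-deficient HSC. In MPP it had 10.99, 10.38 and 10.68 in wild-type and 10.34, 9.84 and 10.29 in NFAT5-deficient cells. So the genotype difference was 0.53 in HSC, or 0.29 without NFAT5-deficient sample 64, and -0.53 in MPP, and the test of the change between populations gave 1.06 (SE 0.35, limma adjusted p = 0.999). Mrps17 turned the other way, since it had 8.53, 8.69 and 8.48 in wild-type and 8.32, 8.37 and 8.38 in NFAT5-deficient HSC. That difference was -0.21, against 0.83 in MPP, and the change between populations was -1.04 (SE 0.27, limma adjusted p = 0.999). Over all 76 members, the same test gave 0 calls (0% of all genes), with 3 members higher (2.24% of all genes) and 1 lower (1.95%) at an unadjusted p under 0.05. Beside these, Mrpl9 had 1.36 (SE 0.43, adjusted p = 0.999) and Mrpl47 had 1.67 (SE 0.74, adjusted p = 0.999), or 1.10 without wild-type HSC sample 66.

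**Figure D3:**
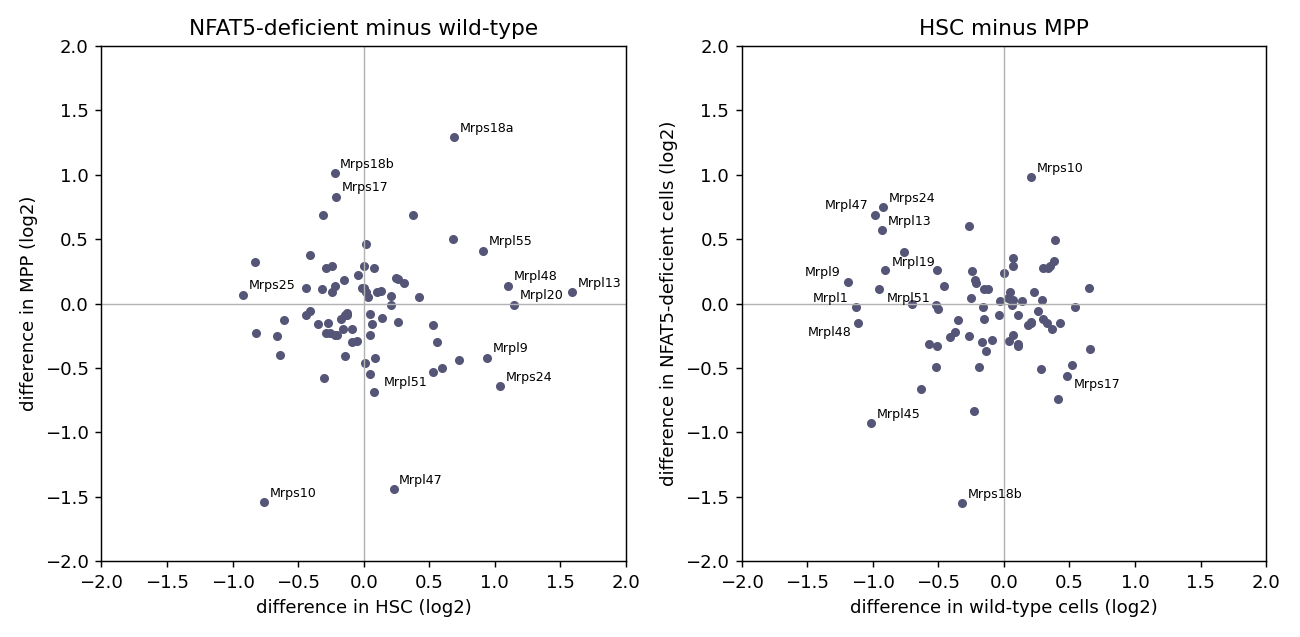
Log2 differences of the 76 genes; left, NFAT5-deficient minus wild-type in HSC (horizontal) and in MPP (vertical); right, HSC minus MPP in wild-type (horizontal) and in NFAT5-deficient cells (vertical). Each point is a gene, those with a difference over 0.9 in size and Mrps17 and Mrpl51 are labelled. The 2 differences have opposite signs for 35 genes in the left panel and 38 in the right.

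The next comparison set HSC against MPP among wild-type cells. No member passed limma's test here (smallest adjusted p 0.256), while 0.164% of all genes did. The median difference over the members was -0.06, against 0.05 over all named genes and 0.02 over the genes above the dim level, and it was -0.14 over the large and 0.03 over the small subunit. At an unadjusted p under 0.05, 3 members were lower in HSC (3.95%, against 3.93% of all genes) and 1 was higher (1.32%, against 4.96%).

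The 3 lower ones were all large-subunit genes, as are 50 of the 76 members. Mrpl51 had 9.61 to 9.89 in HSC and 10.38 to 10.99 in MPP, a difference of -0.95 (SE 0.25, 95% interval -1.50 to -0.41, limma adjusted p = 0.256). Mrpl9 had 8.38, 8.54 and 7.88 in wild-type MPP, above all its HSC values, a difference of -1.19 (SE 0.31, 95% interval -1.87 to -0.51, adjusted p = 0.256 by limma). Mrpl1, of the stalk through which spent tRNAs leave, had 7.02, 7.44 and 7.01 in HSC and 7.77, 8.33 and 8.74 in MPP, a difference of -1.13 (SE 0.35, adjusted p = 0.359). The higher one was Mrps17, with 0.48 (SE 0.19, adjusted p = 0.496). The groups did not overlap in 4 lower members, Mrpl51, Mrpl2, Mrpl9 and Mrpl1 (5.26%, against 4.74% of all genes and 6.55% of those above the dim level). They also did not overlap in 2 higher ones, Mrps2 and Mrps17 (2.63%, against 7.54% and 6.25%). The same wild-type HSC arrays enter the genotype comparison in HSC, so the values of Mrpl51, Mrpl9 and Mrps17 in the 2 comparisons share their low or high side.

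Among NFAT5-deficient cells, HSC were likewise set against MPP. No member passed limma's test (smallest adjusted p 0.292, with 0.210% of all genes called), and the member median was -0.03, against 0.07 over all named genes. At an unadjusted p under 0.05, 2 members were lower in HSC (2.63%, against 2.95% of all genes) and 0 were higher (4.95% of all genes were). Mrps18b had 6.38, 6.50 and 6.78 in HSC and 8.37, 8.01 and 7.94 in MPP, a difference of -1.55 (SE 0.41, 95% interval -2.45 to -0.65, limma adjusted p = 0.292). Mrps17, also among the members with a p under 0.05 in wild-type cells, had -0.56 (SE 0.19, adjusted p = 0.469), opposite in sign to its wild-type value. Groups did not overlap in 7 lower members (9.21%, against 5.39% of all genes), Mrps17, Mrps35, Mrpl41, Mrpl16, Mrps18a, Mrps18b and Mrpl43, and in 1 higher member, Mrpl42 (1.32%, against 11.5%). Among members higher in HSC, the smallest p values were those of Mrpl52 (0.49), Mrps24 (0.75), Mrps10 (0.98) and Mrpl47 (0.69). Their groups overlapped, with adjusted p from limma of 0.762 to 0.772. For Mrpl9, Mrpl51 and Mrpl1 the differences were 0.17, 0.11 and -0.03 in NFAT5-deficient cells, with groups that overlapped.

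**Figure D4:**
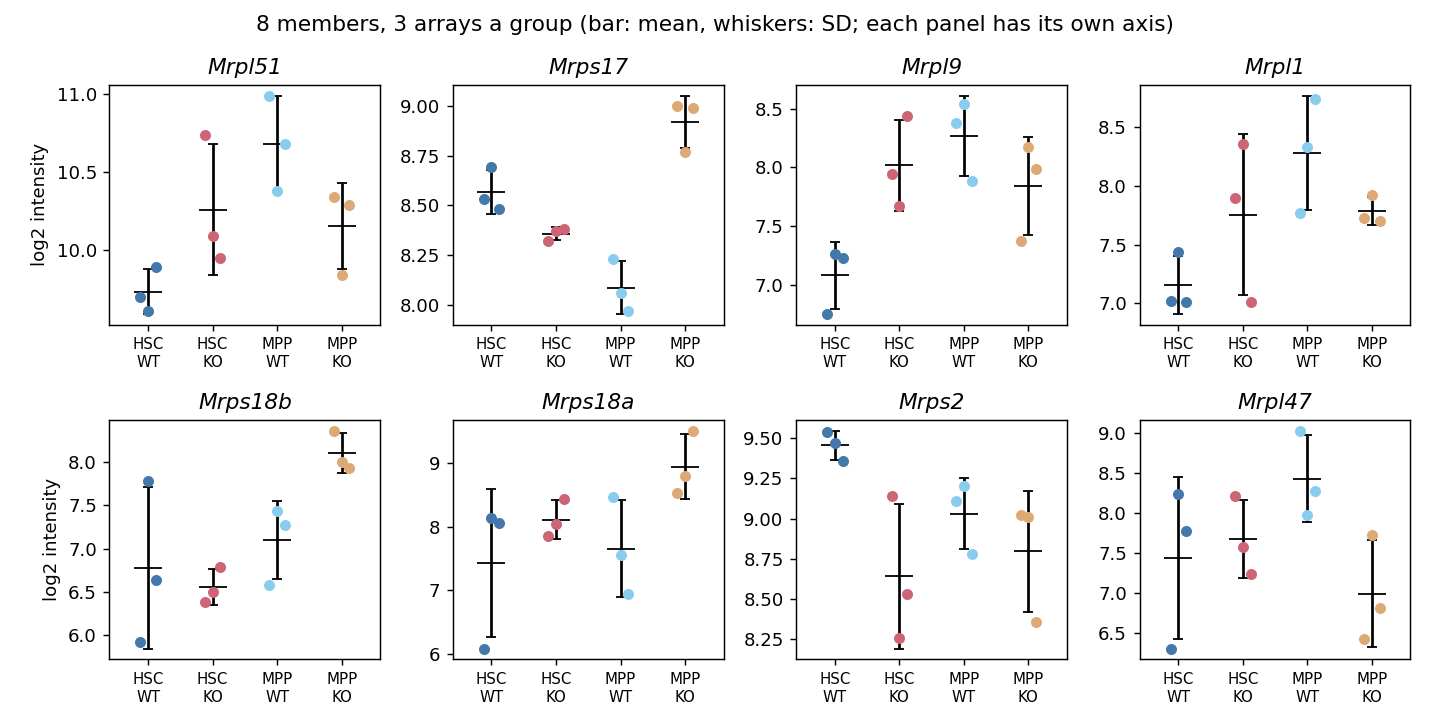
Log2 intensity (vertical axes, each panel with its own scale) of 8 members in the 4 groups (WT, wild-type; KO, NFAT5-deficient); points are arrays, bars group means and whiskers SD with n = 3. Mrpl51 and Mrps17 show genotype groups apart in opposite directions in HSC and MPP, and Mrps18b is highest in NFAT5-deficient MPP.

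Averaged over both genotypes, more members had the lower value in HSC than in MPP, though none was called. The median difference was -0.07, against 0.06 over all named genes and 0.03 over the genes above the dim level, and 45 of 76 members had the lower value in HSC (59.2%, against 36.6% of all genes and 45.4% of those above the dim level). No member was called by limma (smallest adjusted p 0.238, with 0.610% of all genes called). At an unadjusted p under 0.05, 5 were lower in HSC (6.58%, against 4.71% of all genes and 7.07% of those above the dim level). At the same limit 0 were higher (7.44% of all genes and 5.51% of those above the dim level were). Mrps18b led with -0.93 (SE 0.29, limma adjusted p = 0.238), followed by Mrps35, a small-subunit protein of mitochondria, with -0.65 (SE 0.23, adjusted p = 0.315). Without wild-type HSC sample 67, where Mrps18b had 7.78 and the other 2 samples 5.92 and 6.63, Mrps18b had -1.19 and passed (limma adjusted p = 0.0464), the only call of a member in the settings run. The direction was the same in both genotypes for 38 members, lower in HSC for 23 (20.4% of all genes) and higher for 15 (41.1% of all genes). These last shares include dim genes, and none was taken above the dim level alone.

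The Mrps18 genes are 3 paralogues of a bacterial small-subunit protein. The products of Mrps18b and Mrps18c take different places in the small subunit, and that of Mrps18a lies in the large subunit. Mrps18c was bright and level, with group means of 10.43 ± 0.16 (SD, n = 3) and 10.19 ± 0.61 in wild-type and NFAT5-deficient HSC and 10.39 ± 0.19 and 10.48 ± 0.21 in MPP. Mrps18a had 8.46, 7.56 and 6.94 in wild-type and 8.52, 8.80 and 9.51 in NFAT5-deficient MPP, groups that did not overlap but nearly touched. Its difference was 1.29 (SE 0.56, 95% interval 0.05 to 2.53, limma adjusted p = 0.896). Mrps18b had 6.58, 7.44 and 7.27 against 8.37, 8.01 and 7.94, a difference of 1.01 (SE 0.41, 95% interval 0.10 to 1.91, limma adjusted p = 0.896). For Mrps18c the same difference was 0.09 (95% interval -0.50 to 0.68). In HSC the 3 genotype differences were 0.69, -0.22 and -0.24 for Mrps18a, Mrps18b and Mrps18c, with adjusted p from limma of 0.906, 0.955 and 0.923. That of Mrps18a leaned on wild-type sample 66. The gene had 6.08, 8.13 and 8.06 in wild-type samples 66, 67 and 75 and 7.85, 8.04 and 8.44 in NFAT5-deficient HSC.

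The genes that serve the mitochondrial ribosome gave no calls either. Of 83 measured genes in 6 lists, 0 passed limma's test in any of the 7 comparisons, and at an unadjusted p under 0.05 there were 4 higher (4.82%, against 2.68% of all genes) and 2 lower (2.41%, against 3.50%) with loss of NFAT5 in HSC. In MPP there were 1 higher (1.20%, against 1.76%) and 1 lower (1.20%, against 3.59%). The lists were chosen with earlier results of these data known. The median genotype differences in HSC and MPP were 0.03 and 0.40 for 4 ribosomal proteins with other names, 0.25 and 0.02 for 15 translation factors, and 0.02 and -0.05 for 26 assembly and rRNA modification factors. They were -0.05 and 0.03 for 19 genes of tRNA charging, -0.03 and 0.08 for 11 of mitochondrial transcription and mRNA stability, and -0.23 and 0.37 for 8 regulators of mitochondrial biogenesis. Among translation factors, 3 of 15 had the lower value in NFAT5-deficient than in wild-type HSC (20.0%, against 58.4% of all genes), and 7 of 15 in NFAT5-deficient MPP (46.7%, against 61.1%). In wild-type cells 13 of 15 had the lower value in HSC than in MPP (86.7%, against 41.4% of all genes, with a median of -0.37), and in NFAT5-deficient cells 6 of 15 did (40.0%, against 37.9%, with a median of 0.08). The wild-type HSC arrays enter both the first and the third of these counts. All 15 factors had means above the dim level. Among all genes above that level, the shares with the lower value were 51.6%, 53.5%, 47.9% and 45.3%, in the same order. Of the 6 lists, such counts are given for this one alone, and they were not tested.

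Rars2 had a larger genotype difference in HSC than any member, without passing the test. This gene, the mitochondrial arginyl-tRNA synthetase, had 6.34 ± 1.30 (SD, n = 3) in wild-type HSC and 10.24 ± 1.49 in those lacking NFAT5. The difference was 3.89 (SE 0.80, limma adjusted p = 0.668) in HSC and -0.67 in MPP. The wild-type HSC mean was barely above the dim level of 6.30, so the difference in HSC is taken against a signal close to background. Rpusd4, which modifies the large ribosomal RNA, had 7.20 ± 1.74 and 5.06 ± 0.23 in HSC, a difference of -2.14 (SE 0.64, adjusted p = 0.779 by limma), and 5.34 ± 0.39 and 6.70 ± 0.06 in MPP, a difference of 1.35 (SE 0.64, limma adjusted p = 0.896). Its means in NFAT5-deficient HSC and wild-type MPP were below the dim level of 6.30, so these differences are taken against a signal not told apart from background. Taco1, an activator of the translation of a cytochrome c oxidase subunit, had 1.07 in HSC (adjusted p = 0.779), from a dim 5.96 in the wild-type group, and -0.76 in MPP (adjusted p = 0.896). The difference in HSC was 0.67 (adjusted p = 0.779) for Trmt10c, which processes mitochondrial tRNAs. Ppargc1b, a coactivator of mitochondrial biogenesis, had -0.53 (adjusted p = 0.779) and Dap3, a small-subunit protein, -0.42 (adjusted p = 0.919). Between wild-type HSC and MPP, Dap3 had 0.69 and Rars2, with the same nearly dim HSC mean, -2.42, neither of them called. Rpusd4 had 1.86 over its dim MPP mean (limma adjusted p = 0.423).

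In MPP the genes with the smallest p value in their lists were, beside Rpusd4 and Taco1, Tefm, the mitochondrial transcription elongation factor, with a genotype difference of -1.01, Ppargc1a, a coactivator like Ppargc1b, with 0.92 over a dim wild-type mean of 5.59, and Iars2, the isoleucyl-tRNA synthetase, with 1.32 (each with an adjusted p of 0.896 by limma). The last of them, Ptcd3, a small-subunit protein, had 0.49 (adjusted p = 0.899). Between wild-type HSC and MPP, Tfb2m, which opens mitochondrial promoters, had a difference of 2.48 (SE 0.58, limma adjusted p = 0.203) and Taco1 one of -1.43 (adjusted p = 0.301). Myc, a driver of growth and ribosome production, had lower values in HSC in both genotypes, with -0.86 (adjusted p = 0.546) and -1.07 (adjusted p = 0.483). In NFAT5-deficient cells Noa1, a GTPase of small-subunit assembly, had -2.70 in HSC against MPP (SE 0.96, adjusted p = 0.494), Tufm, the elongation factor that brings tRNAs, -0.32 (adjusted p = 0.769), and Gadd45gip1, a large-subunit protein, -0.25 (adjusted p = 0.802).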

How the data were processed

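The authors deposited log2 intensities of 22142 probe sets on 12 arrays; the scale was read from the values (2.51 to 13.28). RMA and limma stand in the submitters' processing notes, with no version. Of the probe sets, 19527 carried a single gene symbol, 0 several and 2615 none in the annotation of the platform. For 33 genes with several probe sets the brightest was kept, which left 19494 genes. No filter on dim genes and no further normalization was applied. The genome build of the probes and the scan dates are not given in the sources used here.

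Tests were run with limma 3.58.1 under R 4.3.3 (a mean for each of 4 groups over 12 arrays, intensity-dependent variance prior), with Benjamini-Hochberg adjustment over all 19494 genes and calls at an adjusted p under 0.05. The fit was tested on simulated data with planted changes larger than any member difference seen here. That test therefore does not show whether differences of the size seen would be called. The number of arrays limits the precision. The sample numbers occur in both HSC and MPP of a genotype. Residuals of same-numbered samples correlated at -0.01 to 0.06 over all genes. For numbers 66 and 67 (both 0.06) this exceeded the highest correlation with another number (0.02). For numbers 64, 70, 75 and 76 it did not. The neutrophil markers of the wild-type samples also followed the number. Over the members alone, residuals of same-numbered samples correlated at -0.37 to -0.03. For every number this was below the highest correlation with another number (0.23 to 0.26). These values do not settle whether the numbers are pairs. The main fit did not treat them as pairs, and the number was run as a replicate block among the settings.

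The members, lists, markers and tests were chosen with earlier results of these data known. The rule for naming took members called in any comparison. It took the 4 with the smallest unadjusted p in each direction in each of 5 comparisons. It also took the 4 brightest and 4 dimmest, the 3 with the largest SD and the Mrps18 genes. From each related list it took any called gene, otherwise the one with the smallest p per genotype and population comparison. Mrpl21 and Mrpl36, which the rule took, are not described above, nor is every comparison of the others. Members whose groups do not overlap, and a few others, were named after their values were seen. Figures were drawn with matplotlib 3.10.9 in Python 3.11.15.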

Additional observations from a re-analysis of the deposited data

Results flagged for a closer look

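Mrpl51 and Mrps17 drew attention because every NFAT5-deficient sample lay on one side of the wild-type samples in HSC and every one on the opposite side in MPP. The genotype difference of Mrpl51 in HSC exceeded that in MPP by 1.06 on the log2 scale (limma adjusted p = 0.999), and leaving out each array in turn gave 0.82 to 1.21. For Mrps17 the same quantity was -1.04 (limma adjusted p = 0.999), with -1.12 to -0.98 when each array was left out. Neither passed the test of the difference, and both were found by searching all 76 members. How many of all genes show this pattern was not counted.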

How the results depend on the processing

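In the settings run, 0 members were called in every comparison, with 1 exception, and member medians stayed within the replicate spread, with another. The settings were array centring, quantile normalization, means of probe sets, no dim genes, no intensity trend, the compared groups alone, an adjusted p under 0.10 and leaving out each array. Mean HSC minus MPP differences over both genotypes gave 0 to 1 called member when each array was left out (Mrps18b, without wild-type HSC sample 67). With HSC samples 66 and 70 both left out, the member median in HSC by genotype was -0.11 in place of -0.01; the setting was added after seeing the data, and the cause was not tested. The sample number as a replicate block gave 0 called members in each of the 4 comparisons where it could be fitted (smallest adjusted p 0.999, 0.360, 0.259 and 0.184), and no call changed. The rule for naming gave 40 pairs of a member and a comparison, with the averaged comparisons (and so the call of Mrps18b) left out. For these pairs, 335 values under the other settings and 480 with an array left out kept their direction and stayed uncalled. With 3 arrays a group, a typical member's interval reached 0.79 to either side.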
